A study of Mus musculus with 6 samples.

Results

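The genes described here are 44 mouse genes that write, erase or help to place methyl groups on the lysines of histones. They were taken by name from a list of 27 methyltransferases and cofactors (writers) and 17 demethylases (erasers), and all 44 were found among the 49585 gene identifiers of the count table. RNA was measured in mouse leukemia cells driven by KMT2A-MLLT3, the fusion of the H3K4 methyltransferase KMT2A with MLLT3. Bone marrow of sick mice with this acute myeloid leukemia was transduced with DOT1L, populations expressing it at a high or a low level were sorted, and RNA was taken 3 days after the sort from cells kept in medium with serum, IL-3, IL-6 and SCF. There were 2 libraries labelled DOT1L High, 2 labelled DOT1L Low and 2 labelled NT, 1 of each from the leukemias K3117 and K3174. All 6 carried the fusion. The labels do not expand NT or say how its cells were handled, and they do not say whether the K numbers are separate mice. The p-values measure only the spread left between these 6 libraries once the differences between labels and between leukemias are taken out. In the fit, the spread of each gene was drawn toward that of the other genes.

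Histone lysine methylation is placed by SET domain enzymes and by DOT1L, which methylates H3K79 without a SET domain. It is removed by flavin-dependent LSD enzymes and by iron-dependent JmjC enzymes. Methyl groups on H3K4 and H3K36 mark active promoters and transcribed bodies of genes, while those on H3K9 and H3K27 mark silent chromatin. In leukemias with a KMT2A fusion, the fusion protein loses the SET domain of KMT2A, binds chromatin with the help of menin and LEDGF, and recruits DOT1L.

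Total counts per library lay between 22908445 and 33265848. Levels are given as CPM, counts scaled to a common library size after TMM, and differences were tested in edgeR by quasi-likelihood, with a block for the leukemia, at a Benjamini-Hochberg adjusted p of 0.05 over 15812 genes. All 44 members passed the filter on low counts, which looked at all libraries together, and the least counted value was 230 counts, of Kdm8. Dot1l itself had 149.7 and 136 CPM in the High libraries of K3117 and K3174, against 128 and 158 CPM in the NT libraries, and 184 and 152 CPM in the Low libraries. Its counts did not follow the order of the labels (High over NT log2 fold change -0.00, adjusted p = 1.00). Whether reads of the introduced DOT1L align to mouse Dot1l is not given, so High, Low and NT name the labels of libraries and not a measured level of DOT1L.

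In High against NT, 5 of the 44 members passed the test. Kdm7a, Kdm5b and Kmt2a rose, and Jmjd1c and Kdm1a fell. These 5 are 11.4% of the members, while 17.3% of all genes tested passed, 10.0% higher and 7.32% lower in High, so the members' share was not above the background. An unadjusted p below the same threshold was found for 10 of the 44 members and for 4544 of the 15812 genes tested. The median log2 fold change was -0.07 over the members and -0.01 over all genes tested. Changes of the members were small: the median size of the log2 fold change was 0.13, against 0.27 over all genes, and 1 member (2.27%) changed by at least 2-fold, against 13.4% of all genes. The members were also more highly counted than the rest, with a median log2 CPM of 6.50 against 3.98, and their median SE was 0.13 against 0.18. Of the 39 members that did not pass, 35 had a 95% interval of the fold that lay within 1.5-fold in either direction. The intervals of Kmt2d, Phf8, Setdb2 and Smyd5 reached beyond it, down to 0.611 for Smyd5 and up to 1.60 for Setdb2.

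By the GENCODE annotation of GRCm38, Kdm7a (ENSMUSG00000042599.8) lies on chromosome 6 from 39136623 to 39206789, minus strand. Kdm5b (ENSMUSG00000042207.17) lies on chromosome 1 from 134560171 to 134635285, plus strand, and Kmt2a (ENSMUSG00000002028.13) lies on chromosome 9 from 44803355 to 44881296, minus strand. Jmjd1c (ENSMUSG00000037876.16) lies on chromosome 10 from 67096125 to 67256326, plus strand, and Kdm1a (ENSMUSG00000036940.15) lies on chromosome 4 from 136550540 to 136602723, minus strand. Each of the 5 is protein-coding, and counts are given per gene. Kdm7a and Kmt2a share 2.85% and 2.27% of their exon length with an antisense gene.

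Single libraries decided part of this count. Without the NT library of K3117, 13 members passed (26.6% of all genes), and without the High library of K3174, 3 members passed (11.7% of all genes). Upper quartile scaling gave 7 members, 2 higher and 5 lower (18.7% of all genes), and 43.9% of all genes called were then higher in High, against 57.8% with TMM and 49.2% with library sizes alone. Kdm7a, Kdm5b and Jmjd1c were called in each of the fits that left out a library.

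**Figure D1:**
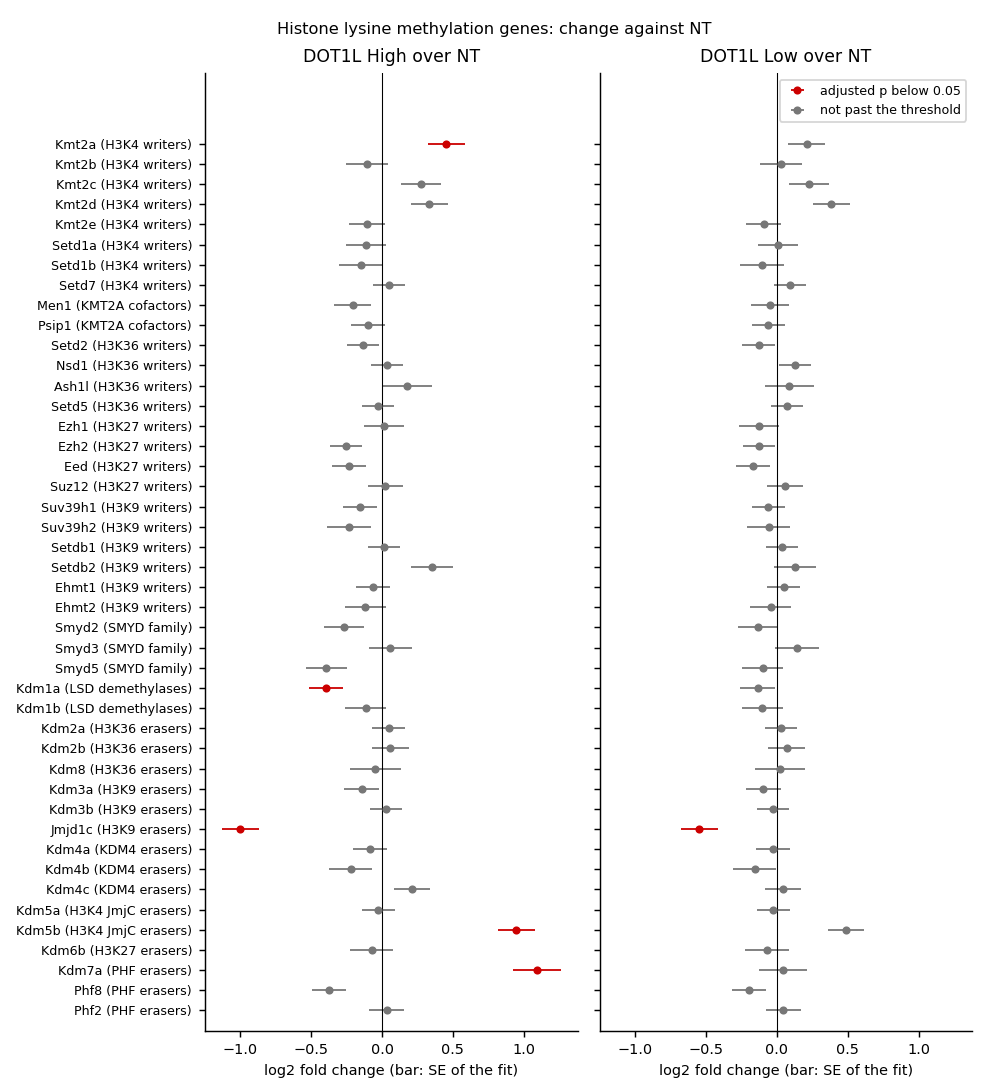
Log2 fold change of each of the 44 members, High over NT on the left and Low over NT on the right, with the SE of the fit as a bar and members past the adjusted threshold in red. In High over NT, 3 red points lie right of 0 and 2 left of it, and in Low over NT the red point is Jmjd1c.

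The erasers held 4 of the 5 members that passed, 2 higher and 2 lower of 17 (23.5%). The writers and cofactors held 1 of 27 (3.7%), and 17.3% of all genes tested passed. Whether these shares differ was not tested. Kdm7a, a JmjC demethylase with a PHD finger that removes methyl groups from H3K9 and H3K27, had 30.3 and 39.0 CPM in the High libraries of K3117 and K3174, against 16.7 and 15.3 CPM in NT. The Low libraries had 14.5 and 19.1 CPM, so both High libraries stood above the other 4, and Low overlapped NT. The change in High over NT was 2.13-fold, a log2 fold change of 1.09 ± 0.17 (SE), with a 95% interval of 1.65 to 2.75 and adjusted p = 0.000865. Within the leukemias the High minus NT difference was 0.85 and 1.34 (log2 CPM). High over Low also passed (log2 fold change 1.05 ± 0.17, adjusted p = 0.00357), while Low over NT did not (0.05 ± 0.17, adjusted p = 0.98). The High over Low call was lost without the block (adjusted p = 0.299) and without the Low library of K3117 (0.90, adjusted p = 0.0607).

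Kdm5b, the JmjC enzyme that removes H3K4 di- and trimethylation, had 80.3 and 66.8 CPM in the High libraries, against 44.35 and 32.4 CPM in NT. The Low libraries had 56.1 and 50.7 CPM, above both NT values and below both High values. High over NT was 1.93-fold (log2 fold change 0.95 ± 0.13, 95% interval 1.58 to 2.35, adjusted p = 0.000365), and both leukemias contributed, with 0.86 and 1.04. Without the block the value was 0.94 with an adjusted p of 0.0538. The 2 steps taken alone did not pass (Low over NT 0.49 ± 0.13, adjusted p = 0.0719; High over Low 0.46 ± 0.13, adjusted p = 0.0668). Both passed in some alternatives, among them DESeq2 (0.49, adjusted p = 0.0393, and 0.46, adjusted p = 0.0488), and over the 15 alternatives the adjusted p was between 0.00274 and 0.801 for Low over NT and between 0.00148 and 0.858 for High over Low. Its close relative Kdm5a had an adjusted p of 0.922 in High over NT, at -0.03.

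Jmjd1c, a JmjC protein of the H3K9 demethylase family of Kdm3a that is studied as a dependency of KMT2A-rearranged leukemia, was the most highly counted member in NT, by CPM. It had 213.5 and 245 CPM in the High libraries, against 499.8 and 419 CPM in NT, with 313 and 315 CPM in the Low libraries. The 3 labels did not overlap, and the order was NT, Low, High from highest to lowest in both leukemias. High over NT was 0.500-fold, a log2 fold change of -1.0 ± 0.13, with a 95% interval of 0.409 to 0.612 and adjusted p = 0.000284. Low over NT was 0.684-fold (log2 fold change -0.55 ± 0.13, 95% interval 0.560 to 0.834, adjusted p = 0.0451). This was the only member called in Low over NT, and the call was lost without the block (adjusted p = 0.605), with genes of at least 5 CPM (0.0593), and without 1 of 3 libraries, namely K3117 NT (-0.36, adjusted p = 0.0694), K3117 Low (adjusted p = 0.328) or K3174 Low (adjusted p = 0.37). The High over NT call was kept in all 15 alternatives. Jmjd1c is also on a list of genes bound and raised by KMT2A fusions, drawn up with earlier results of these data known. Of its 19 genes, 14 fell in High over NT, Jmjd1c among them, while 7.32% of all genes tested fell. Because the list was so drawn up and counts Jmjd1c itself, this number is not separate evidence about the gene.

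Kdm1a, the flavin-dependent demethylase LSD1 of H3K4 mono- and dimethylation, which acts with CoREST proteins and GFI1, had 87.2 and 73.4 CPM in the High libraries, against 104 and 107 CPM in NT. The Low libraries had 102 and 89.65 CPM. High lay below Low and NT within each leukemia. High over NT was 0.760-fold (log2 fold change -0.40 ± 0.12, 95% interval 0.631 to 0.916, adjusted p = 0.0461), close to the threshold. The call was lost without the block (-0.39, adjusted p = 0.17) and on leaving out any library other than the NT library of K3117. The log2 fold change was then -0.49 without the High library of K3117 (adjusted p = 0.118) and -0.40 without its Low library (adjusted p = 0.0712). It was -0.31 without the High library of K3174 (adjusted p = 0.502), -0.39 without its Low library (adjusted p = 0.0796) and -0.26 without its NT library (adjusted p = 0.175).

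Starts of transcription of the members with the largest changes are shown as 250 bases before the RefSeq start of each gene (GRCm38.p6, 5′ to 3′ on the strand of the gene). Capitals mark the match to a HOX-PBX composite motif, TGATTNAT, searched on both strands. The windows were chosen to show how unlike in base composition these starts are.
Kdm5b, chr1:134559928-134560177, plus strand: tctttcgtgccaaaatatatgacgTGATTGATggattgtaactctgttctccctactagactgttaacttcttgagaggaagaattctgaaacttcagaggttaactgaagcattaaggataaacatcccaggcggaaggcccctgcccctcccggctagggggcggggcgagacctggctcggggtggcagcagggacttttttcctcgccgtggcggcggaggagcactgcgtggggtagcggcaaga
Kdm7a, chr6:39206774-39207023, minus strand: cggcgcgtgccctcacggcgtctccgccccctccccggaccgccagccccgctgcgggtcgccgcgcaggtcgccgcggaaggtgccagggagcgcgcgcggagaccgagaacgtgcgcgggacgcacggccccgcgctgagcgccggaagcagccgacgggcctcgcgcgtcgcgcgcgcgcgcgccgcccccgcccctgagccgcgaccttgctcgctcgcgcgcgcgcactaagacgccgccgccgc
Jmjd1c, chr10:67126838-67127087, plus strand: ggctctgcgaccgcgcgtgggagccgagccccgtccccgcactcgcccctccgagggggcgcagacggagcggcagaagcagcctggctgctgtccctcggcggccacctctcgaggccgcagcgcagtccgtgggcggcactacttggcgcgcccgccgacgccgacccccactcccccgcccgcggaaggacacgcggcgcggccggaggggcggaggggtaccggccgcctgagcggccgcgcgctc
The Kdm7a window is 82.0% GC with 56 CpG, the Jmjd1c window, the first of 2 starts listed, 79.6% GC with 40 CpG, and the Kdm5b window 54.4% GC with 13 CpG. The other Jmjd1c start listed, which is not printed, has 47.2% GC and 11 CpG. A promoter was listed for 32 of the 44 members. Their median GC was 63.5% and their median CpG number 22.5, against 52.4% and 6 over 27025 genes.

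The HOX-PBX letters occurred in 1 of the 32 members, Kdm5b, and in 3.31% of all genes. The other motifs were spelled and counted in the same way, on both strands. The MEIS letters TGACAG were found in 5 members (15.6%, against 17.95% of all genes), namely Ezh1, Ezh2, Men1, Setd7 and Setdb2. The C/EBP letters TTGCNNAA were in 1 member, Suv39h1, against 10.8% of all genes. The E2F letters TTCCCGCC were in 1, Suv39h2, against 2.13%. The letters of PU.1 (GAGGAAGT, 2.79% of all genes) and GFI1 (AAATCNC, 11.7%) were in 0 of the 32. These counts describe letters in a window and say nothing of binding.

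Among the other erasers, 13 of 17 did not pass in High over NT. Phf8, a PHD finger demethylase of H3K9 and H4K20, was nearest the threshold, with 60.8 and 55.6 CPM in the High libraries, against 74.8 and 76.2 CPM in NT, and 69.4 and 62.4 CPM in Low (log2 fold change -0.38 ± 0.12, adjusted p = 0.0535). It passed in several alternatives, among them genes of at least 5 CPM, upper quartile scaling and the correction for transcript GC. Kdm6b, the H3K27 demethylase JMJD3, had 34.3 and 44.9 CPM in the High libraries, against 39.4 and 43.8 CPM in NT, with 42.2 and 36.7 CPM in Low, and the groups overlapped (-0.07 ± 0.15, 95% interval of the fold 0.751 to 1.20, adjusted p = 0.813). The other enzymes for H3K36 and H3K9 did not pass: Kdm2a, Kdm2b and Kdm8 had log2 fold changes of 0.05, 0.06 and -0.05, and Kdm3a and Kdm3b of -0.14 and 0.02. The KDM4 enzymes, which act on H3K9 and H3K36, had -0.08 (Kdm4a), -0.22 (Kdm4b) and 0.21 (Kdm4c). Kdm1b, the second LSD enzyme, had -0.12, and Phf2 had 0.03.

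Of the 8 genes grouped as H3K4 writers, Kmt2a alone passed. Kmt2a, the gene of which a part makes the fusion, had 278 and 271 CPM in the High libraries, against 237 and 169 CPM in NT. The Low libraries had 247 and 219 CPM, between High and NT within each leukemia. The High and NT libraries did not overlap, and the NT library of K3174 was the lowest of the 6. High over NT was 1.37-fold (log2 fold change 0.45 ± 0.13, 95% interval 1.12 to 1.67, adjusted p = 0.0337), with 0.23 within K3117 and 0.68 within K3174. The call was lost without the block (0.44, adjusted p = 0.231), with upper quartile scaling (0.36, adjusted p = 0.0823), with library sizes alone (0.40, adjusted p = 0.0645), without the NT library of K3174 (0.27, adjusted p = 0.153) and without its High library (0.31, adjusted p = 0.45). Whether reads of the fusion are part of the Kmt2a count is not given.

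The large H3K4 monomethyltransferases Kmt2c and Kmt2d had log2 fold changes of 0.27 (adjusted p = 0.237) and 0.33 (adjusted p = 0.11) in High over NT. Kmt2c had 105 and 133 CPM in the High libraries, against 106 and 90.2 CPM in NT, so that the difference was -0.01 in K3117 and 0.56 in K3174. Kmt2b, Setd1a and Setd1b, which act in related complexes, had -0.11, -0.12 and -0.15. Setd7 had 0.05 and Kmt2e, a relative with no settled enzyme activity on histones, -0.11. Of the exon length of Setd1a, 51.8% is shared with the gene Gm49388 on the same strand, so its counts are uncertain.

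The cofactors of KMT2A did not pass. Men1, which encodes menin, the scaffold that ties KMT2A and its fusions to LEDGF, had 74.3 and 59.97 CPM in the High libraries, against 77.7 and 76.1 CPM in NT, and 86.4 and 64.0 CPM in Low. High over NT was -0.21 ± 0.13 (95% interval of the fold 0.709 to 1.06, adjusted p = 0.347), and it passed in the fit that left out the K3117 NT library (-0.38, adjusted p = 0.0307). Psip1, which encodes LEDGF, a reader of methylated H3K36, had 90.5 and 99.25 CPM in the High libraries, against 105 and 98.1 CPM in NT, and 93.8 and 101 CPM in Low. Here the groups overlapped (-0.10 ± 0.12, 95% interval of the fold 0.779 to 1.12, adjusted p = 0.664).

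**Figure D2:**
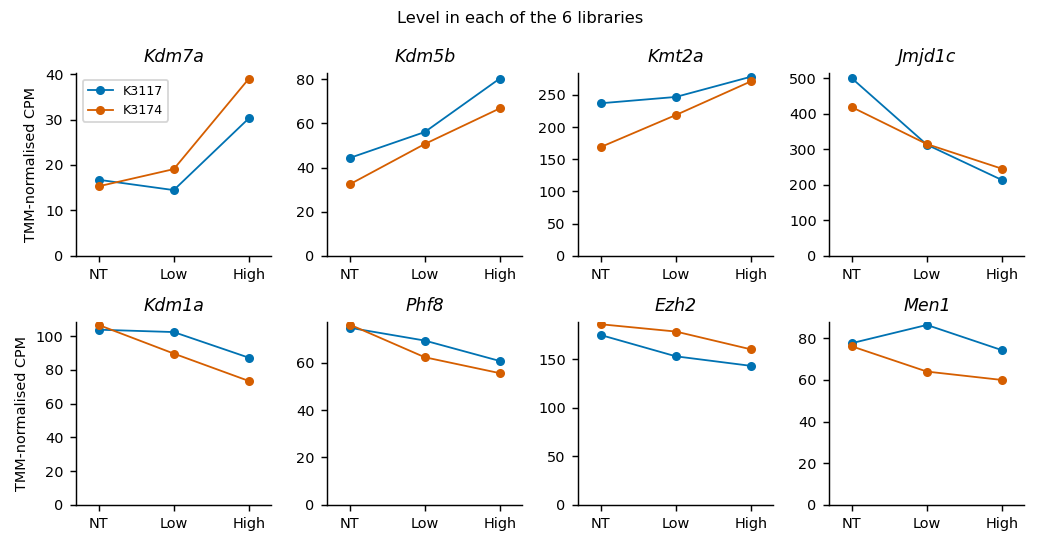
TMM-normalised CPM of 8 members in each of the 6 libraries, with NT, Low and High along the axis and a line for each leukemia. Kdm7a stands at 30.3 and 39.0 CPM in High with Low beside NT. By steps in both leukemias, Kdm5b and Kmt2a climb, and Jmjd1c, Kdm1a, Phf8 and Ezh2 descend. Men1 differs in course between the leukemias.

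The H3K36 writers had small changes. Setd2, the enzyme that places H3K36 trimethylation while travelling with RNA polymerase II, had 214 and 236 CPM in the High libraries, against 249.8 and 243 CPM in NT, and 213 and 239 CPM in Low (-0.13 ± 0.12, 95% interval of the fold 0.765 to 1.09, adjusted p = 0.511). Nsd1, a dimethyltransferase, had 0.03, and Setd5, grouped here with them, -0.03. Ash1l had 55.3 and 82.3 CPM in the High libraries, against 66.5 and 54.0 CPM in NT. The difference was -0.27 in K3117 and 0.61 in K3174, and over both leukemias the log2 fold change was 0.17 ± 0.18 with adjusted p = 0.591.

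Polycomb repressive complex 2 methylates H3K27 through Ezh2 or Ezh1, with Eed and Suz12 as core subunits. Ezh2 had 143 and 160 CPM in the High libraries, against 175 and 186 CPM in NT, and 153 and 178 CPM in Low. High did not overlap NT, and the test was not passed (-0.25 ± 0.11, 95% interval of the fold 0.708 to 0.995, adjusted p = 0.161). It was passed with upper quartile scaling (-0.35, adjusted p = 0.0493) and with a correction for transcript GC (-0.31, adjusted p = 0.0294). Eed had -0.23 (adjusted p = 0.241) and Suz12 0.02. Ezh1 had 26.6 and 24.9 CPM in the High libraries, against 28.1 and 23.1 CPM in NT, and 24.2 and 22.6 CPM in Low (0.01 ± 0.14, 95% interval of the fold 0.813 to 1.26, adjusted p = 0.964).

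The 6 H3K9 writers did not pass either. Setdb2 had the largest value among them, with 25.2 and 33.1 CPM in the High libraries, against 22.4 and 22.8 CPM in NT (0.35 ± 0.15, adjusted p = 0.141). Suv39h1 and Suv39h2, the enzymes of constitutive heterochromatin, had -0.15 and -0.23, and Setdb1, which works with TRIM28, had 0.01. Ehmt1 and Ehmt2, the partners GLP and G9a, had -0.06 and -0.12. In the SMYD family, Smyd5 had 50.8 and 51.5 CPM in the High libraries, against 56.0 and 79.8 CPM in NT, a difference that lay mostly in the NT library of K3174 (-0.39 ± 0.15, adjusted p = 0.0912). Smyd2 had -0.27 and Smyd3 0.06. Of exon length, Smyd2 shares 30.0% with Gm37422, Kdm3b 24.6% with Gm26538 and Suv39h1 14.6% with Gm14820, and because the use of strand in counting is not given, overlapping and antisense genes cannot be told apart.

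In Low against NT, 1 of 44 members passed (Jmjd1c, lower), which is 2.27% of the members, while 3.34% of all genes passed, 2.05% higher and 1.29% lower in Low. An unadjusted p below the threshold was found for 3 of the 44 members and for 2097 of the 15812 genes tested. In High against Low, 1 passed (Kdm7a, higher), against 5.48% of all genes, 4.12% higher and 1.35% lower in High. These contrasts share libraries with High over NT, so their values stand side by side and are not separate evidence. The 95% interval of the fold lay within 1.5-fold for 41 of the 43 members not called in Low over NT, the exceptions being Kdm5b and Kmt2d, and for 40 of 43 in High over Low, with Jmjd1c, Kdm5b and Smyd5 as exceptions.

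The High and NT libraries did not overlap for 19 of the 44 members, 5 above NT and 14 below, and this was so for 50.6% of all genes tested. The Low and NT libraries did not overlap for 15 members, 8 above and 7 below, against 31.6% of all genes. Kdm5b, Kmt2a and Setdb2 increased by steps from NT through Low to High in both leukemias, against 12.7% of all genes. Jmjd1c, Kdm1a, Phf8, Ezh2 and Eed decreased by steps, against 11.0% of all genes. Kdm7a was not among them, since its Low library lay below NT in K3117.

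**Figure D3:**
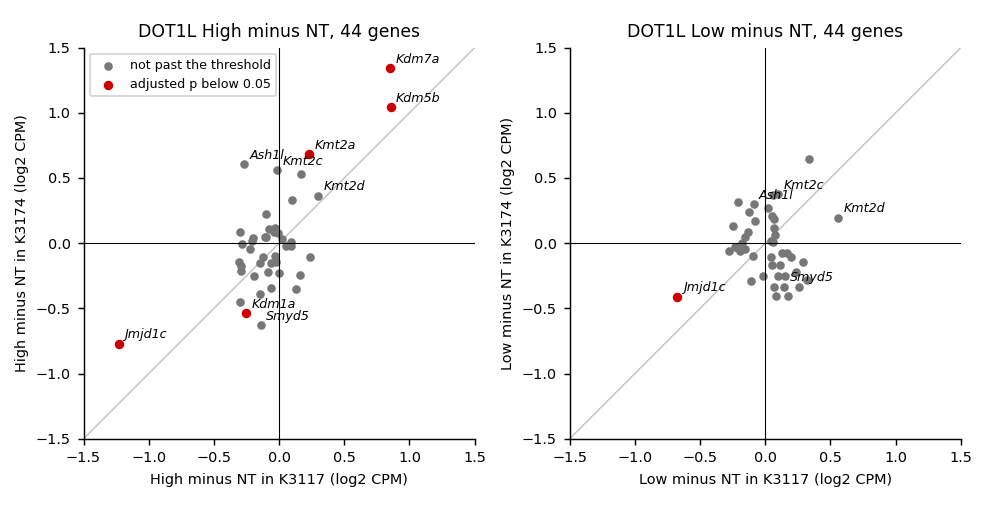
Difference from NT in log2 CPM within K3117 (horizontal) and within K3174 (vertical) for the 44 members, High minus NT on the left and Low minus NT on the right, with red for members past the threshold and the grey diagonal for equal differences. Jmjd1c, Kdm5b and Kdm7a lie far from the centre in High minus NT, while most members lie near 0 and 26 of 44 have the same sign in both leukemias.

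The High minus NT difference had the same sign in both leukemias for 26 of 44 members (59.1%), against 65.7% of all genes tested. For Low minus NT it was 20 (45.5%), against 52.6%. Between the leukemias over the 3 labels, 0 of 44 members passed in K3174 over K3117 with edgeR and 0 with DESeq2. Of all genes, 9.37% passed with edgeR. An unadjusted p below the threshold was found for 5 of the 44 members and for 3181 of the 15812 genes tested.

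The members' small differences varied with the GC content of their transcripts, and the sign was opposite in the leukemias for Low minus NT. Over the 44 members, Spearman's rho of the Low minus NT difference with the GC of the longest transcript was 0.74 in K3117 and -0.61 in K3174, and over 15772 genes it was 0.28 and -0.36. For High minus NT it was 0.21 and -0.40 over the members, and 0.04 and -0.23 over the genes. With transcript length, rho of High minus NT was 0.21 in K3117 and 0.56 in K3174 over the members, and 0.03 and 0.08 over the genes. Each of these values compares 1 pair of libraries, so all points in it share that pair. Of the 22 members with GC above the members' median of 48.8%, 19 had a positive Low minus NT difference in K3117 and 3 in K3174. Of the 22 below it, 8 were positive in K3117 and 16 in K3174. The part of GC in the calls was not tested beyond the corrected fits, which were chosen after seeing the data. With correction for GC, 8 members passed in High over NT (20.7% of all genes), the same 5 together with Ezh2, Kmt2d and Phf8. With correction for GC and length, 7 passed (20.9% of all genes), and Kmt2a was not among them (0.38, adjusted p = 0.0533).

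**Figure D4:**
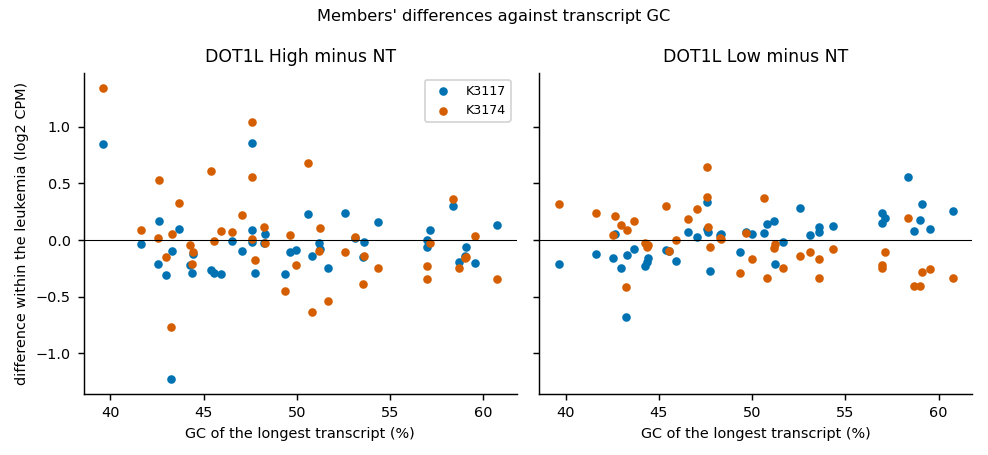
Difference from NT in log2 CPM within each leukemia against the GC content of the longest transcript (percent) for the 44 members, High minus NT on the left and Low minus NT on the right. In Low minus NT the points of K3117 slope upward (rho 0.74) and those of K3174 downward (rho -0.61).

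Levels between genes were compared as CPM per kb of exon. In NT the members ranged from 70.0 CPM per kb for Suz12 to 1.59 for Kdm7a, with Ehmt2 (40.0), Ezh2 (26.99), Jmjd1c (25.8) and Setd2 (22.9) next to the top. At the other end stood Ezh1 (3.44), Kdm5b (2.32) and Smyd3 (2.16). In this order, from 1 for the highest, Jmjd1c was 15 in High and 4 in NT, Kmt2a was 8 in High and 16 in NT, and Kdm1a was 11 in High and 7 in NT. Kdm7a was 43 in High, at 3.44 CPM per kb, and 44 in NT. The median level was 9.59 CPM per kb in High and 9.89 in NT. Together the members took 4422 and 4673 CPM in the High libraries, against 4789 and 4752 CPM in NT, and 4724 and 4653 CPM in Low.

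**Figure D5:**
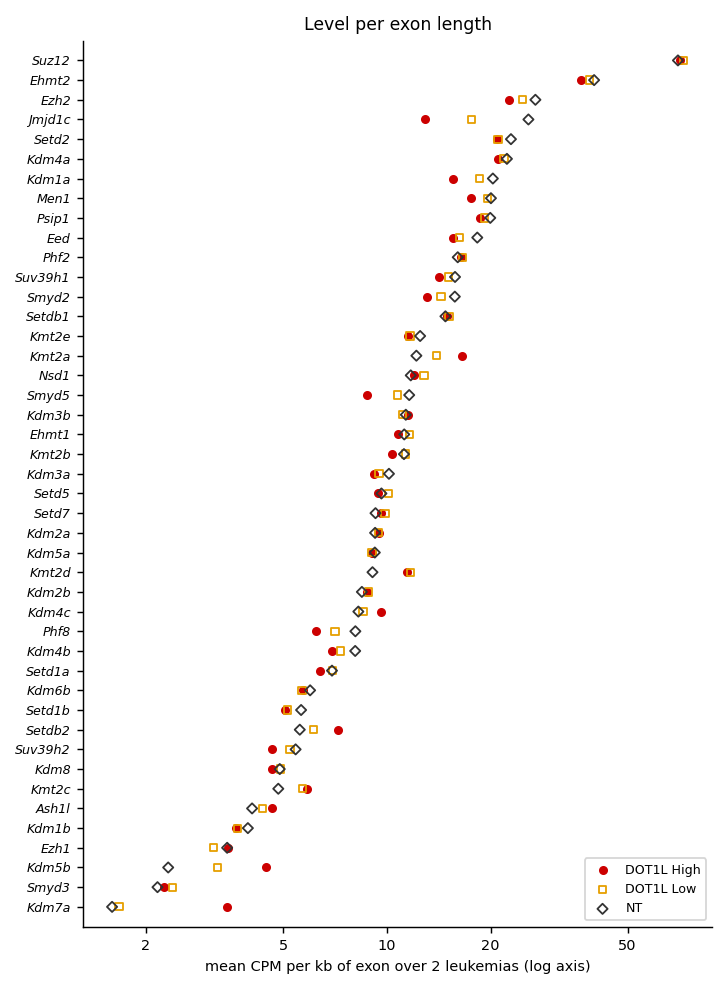
Mean CPM per kb of exon over the 2 leukemias for each member on a log axis, ordered by the level in NT, for High, Low and NT. Kdm5b and Kdm7a are among the lowest in NT and move right in High, and Jmjd1c moves left.

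Other genes of histone methylation were read from lists made with earlier results known. Of 20 further lysine methyltransferases, 1 rose and 2 fell in High over NT. The share that passed was 15% of these, 16.7% of further JmjC genes, 18.2% of shared KMT2 subunits and 11.1% of PRC2 accessory subunits. Over all genes tested it was 17.3%, so these counts were near or below the background. Kmt5a, the H4K20 monomethyltransferase, averaged 254 ± 30.7 CPM in High and 180 ± 24.95 CPM in NT (SD, n = 2 each; log2 fold change 0.50, adjusted p = 0.00894). Mecom, a PRDM family gene known in myeloid leukemia, had 19.3 ± 12.4 CPM in High and 45.7 ± 21.7 CPM in NT (adjusted p = 0.000144), and Prdm11 fell by 1.00 on the log2 scale (adjusted p = 0.00471). Of 12 further JmjC genes, Jarid2, a PRC2 partner without demethylase activity, rose (154 ± 3.95 CPM in High and 108 ± 1.97 CPM in NT, adjusted p = 0.00894) and Jmjd4 fell (adjusted p = 0.00989). Of 11 subunits shared by KMT2 complexes, Hcfc2 (0.63, adjusted p = 0.00581) and Ncoa6 (0.38, adjusted p = 0.039) rose. Of 9 accessory subunits of PRC2, Epop fell by 1.26 (adjusted p = 0.00412).

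Partners of Kdm1a changed in both directions, with 1 of 13 higher and 2 lower (23.1%, against 17.3% of all genes tested). Gfi1, a repressor that brings LSD1 to DNA in granulocyte precursors, had 142 and 208 CPM in the High libraries, against 36.8 and 47.5 CPM in NT (log2 fold change 2.04, adjusted p = 1.19e-06). Its relative Gfi1b averaged 5.50 ± 1.65 CPM in High and 23.8 ± 3.45 CPM in NT (SD, n = 2 each; adjusted p = 0.000618). Rcor2, a CoREST protein, had 12.4 and 9.22 CPM in the High libraries, against 43.0 and 82.9 CPM in NT (adjusted p = 7.81e-05). Of 21 subunits of PRC1, 3 rose (Bcorl1, Pcgf5 and Phc3) and 4 fell (Bcor, Cbx2, Cbx6 and Pcgf2). These are 33.3% of the list, against 17.3% of all genes, and whether the shares differ was not tested. Pcgf5 averaged 66.7 ± 9.10 CPM in High and 39.9 ± 7.68 CPM in NT (SD, n = 2 each; adjusted p = 0.00246). Cbx2 had 1.38 ± 0.378 CPM in High and 6.61 ± 0.935 CPM in NT (adjusted p = 0.000199). Of 11 readers of H3K9 methylation and their partners, Trim28 fell by 0.46 (adjusted p = 0.0453), and of 9 arginine methyltransferases, Prmt5 fell by 0.73 (adjusted p = 0.00414). The shares that passed were 9.09% and 11.1%, below that of all genes. Of 10 readers of H3K36 methylation, 0 passed with edgeR. An unadjusted p below the threshold was found for 3 of them and for 4544 of the 15812 genes tested.

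Markers of neutrophil maturation and most of the mast cell and basophil markers tested rose in High over NT. Over all genes tested, 10.0% were higher and 7.32% lower. Genes that passed on the monocyte, erythroid, and T and NK cell lists moved in both directions. Summed over 20 late neutrophil genes, the level was 3634 and 9173 CPM in the High libraries, against 704 and 423 CPM in NT, and 755 and 1904 CPM in Low, and of the 19 genes tested 18 rose in High over NT. Of 9 primary granule genes 7 rose, with sums of 5267 and 6921 CPM in High, against 1635 and 3142 CPM in NT. Gfi1, already named among the partners of Kdm1a, is 1 of these 7. Of 9 mast cell and basophil genes tested, 6 rose and 0 fell. The list summed to 473.5 and 858 CPM in High, against 121 and 206 CPM in NT. Of 12 monocyte and macrophage genes, 6 rose and 3 fell (Ccr2, Cx3cr1 and Irf8), and their sum was 1637 and 1396 CPM in High, against 1073 and 980.2 CPM in NT. Of 6 B cell genes tested, 2 fell, Ighm and Rag2, and the B cell list summed to 61.8 and 64.2 CPM in High, against 253.9 and 171 CPM in NT. The 11 T and NK cell genes summed to 85.1 and 88.7 CPM in High, against 68.2 and 79.4 CPM in NT. Of these, Cd3e, Cd8a and Ncr1 were at 0, and of the 4 tested, Nkg7 rose and Cd28 and Lck fell. Of 7 erythroid genes tested, Gata1 rose and Hbb-bt fell. Of 4 stromal and endothelial genes tested, Vcam1 rose. In such bulk RNA, fewer cells of a type and less RNA per cell cannot be told apart, and the part of these marker changes in the members' values was not tested. Of 20 S phase genes and of 20 G2/M genes, 0 passed in High over NT with edgeR, and 0 had an unadjusted p below the threshold.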

How the data were processed

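The authors deposited raw counts by gene, with a column for each of the 6 libraries, and these were used unchanged. Per the submitters' processing notes, STAR, STAR-Fusion, kallisto, DESeq2 and mm10 were named. The role and version of each tool, the gene models and the strand setting were not given in the sources used here. Per the labels' protocols, read pairs came from an Illumina HiSeq. Symbols from the GENCODE name table matched 99.5% of identifiers.

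The filter on low counts of edgeR left 15812 genes. Counts were fitted in R 4.3.3 with edgeR 4.0.16 (TMM factors 0.973 to 1.04, quasi-likelihood test, 2 residual degrees of freedom, biological coefficient of variation 12.0%), and DESeq2 1.42.0 was an alternative. The leukemia was a block because each K number is in the title of 1 library of every label. Deviations of libraries with the same K number correlated across genes at 0.57 (Low and NT), 0.44 (High and NT) and 0.64 (High and Low). All pairs of libraries differed by more than sampling noise. The SE was taken as the log2 fold change over the square root of F, and log2 CPM differences in a leukemia had a prior count of 2. Other settings were other scalings, filters on low counts, no block and leaving out each library. The main fit was also run on simulated counts. These held no difference between leukemias and no trend with GC, so that run cannot check the block or the GC differences.

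Genes given with values in every library were the members past the threshold in High or Low over NT, together with Kmt2a, Men1, Psip1, Ezh1, Ezh2, Setd2, Kdm1a, Jmjd1c and Kdm6b whatever their result. Other genes of histone methylation were named where past the threshold, at most 4 a list by smallest p; Bcorl1, Phc3 and Pcgf2 were added after their values were seen. Dot1l was named as the check of the labels. Further members near the threshold or unlike between leukemias (such as Phf8, Setdb2, Smyd5, Kmt2c and Ash1l) were given library values after their values were seen. The members, lists and tests were chosen with earlier results of these data known.

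Exon lengths, positions and transcripts are from GENCODE on GRCm38, and promoters are from RefSeq on GRCm38.p6.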

Additional observations from a re-analysis of the deposited data

How the results depend on the processing

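Without the replicate block, 2 members and 493 genes (3.12% of all genes) passed in High over NT. In Low over NT 0 members and 0 genes passed (unadjusted, 2 and 950), and in High over Low 0 and 0 (unadjusted, 3 and 1238). In K3174 over K3117, 0 members and 90 genes (0.569%) passed. With the GC correction, 8 members passed in High over NT (20.7% of all genes), 2 in Low over NT (3.91%), 3 in High over Low (6.58%) and 2 in K3174 over K3117 (10.6%). With GC and length the last 2 counts were 3 (6.54% of all genes) and 2 (10.6%). Without a filter on low counts, 26299 genes were tested. Then 3 members and 1071 genes (4.07%) passed in Low over NT, and 3 and 1425 (5.42%) in High over Low. With genes of at least 5 CPM, 10258 genes were tested. Then 0 members passed in Low over NT (3.61% of all genes), while 3 members and 1337 genes had an unadjusted p below the threshold. In High over Low 1 member and 568 genes (5.54%) passed, and in K3174 over K3117 0 members and 932 genes (9.09%). DESeq2 gave 2 members in Low over NT (3.72% of all genes) and 3 in High over Low (5.55%), and upper quartile scaling 2 in High over Low (5.29%).

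On leaving out each library in turn, High over NT called 3 to 13 members and 1927 to 4394 genes, Low over NT 0 to 3 and 144 to 1483, High over Low 0 to 4 and 335 to 1982, and K3174 over K3117 0 to 3 and 829 to 2642. The most calls in High over NT came without the NT library of K3117, and the fewest without the High library of K3174. These fits tested 16490 to 16738 genes, against 15812 in the main fit. A fit that leaves out a library assumes that the lone library of its label varies like the others.

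Log2 fold changes near 0 changed sign and were called under none of these settings. Ezh1 in High over NT was -0.081 with upper quartile scaling, -0.043 with library sizes alone and -0.073 to 0.11 on leaving out libraries. Kdm6b was 0.00093 with the GC correction and -0.29 to 0.11 on leaving out libraries, and Psip1 was -0.20 to 0.0092. Kdm7a in Low over NT was -0.046 with GC and length correction and -0.20 to 0.31 on leaving out libraries. The cause of these differences was not tested. With 2 libraries a label and 2 residual degrees of freedom, calls near the threshold depend on single libraries.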
